A study of Mus musculus with 22 samples.

Results

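Newly made RNA of C2C12 cells was compared between cultures labelled siPcf11 and untreated cultures, in 4 of the 22 libraries of a mouse study of RNA 3′ ends. Libraries were chosen by their titles, 2 per group. C2C12 is a mouse myoblast line, and its strain is given as C57BL/6. The siPcf11 cells received siRNA against Pcf11, while no control siRNA is named for the untreated ones, so transfection and loss of Pcf11 cannot be told apart as sources of a difference. Both groups were exposed to 50 µM 4-thiouridine (4sU) for 1 h. This uridine analogue enters RNA made during the exposure, and the labelled RNA was purified and sequenced with 3′READS, which reads the fragment beside the poly(A) tail and so counts RNA 3′ ends at each position. Total RNA of the same treatments, in 4 more libraries, also entered the choice of sites and pairs, some classes of them and the fits. It further served to show where newly made RNA differed. Whether the 2 libraries of a group stem from separate cultures is not given. A p-value from the fits reflects only how far libraries of the same group spread, estimated over all groups fitted, total RNA included. That spread may be technical.

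The 3′ end of an mRNA forms when a cleavage and polyadenylation complex cuts the nascent transcript at a poly(A) site and adds the tail. PCF11 belongs to that complex, binds the C-terminal domain of RNA polymerase II, and takes part in ending transcription downstream of the cut. Most mammalian genes carry several poly(A) sites, and a choice between them changes the 3′ UTR or, where a site lies in an intron, truncates the transcript. RNA labelled for a short time is weighted toward synthesis, whereas total RNA also reflects decay.

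The siPcf11 libraries held 2184945 and 2095708 reads and the controls 2565623 and 2655317. Together they listed 169344 end positions. Of these, 34729 had at least 1 CPM (counts scaled to the library's total) in at least 2 of the 8 siPcf11 and control C2C12 libraries, total RNA included, and were kept as sites. They took 98.01% and 97.98% of the siPcf11 reads and 97.57% and 97.46% of the control reads. Reads were more concentrated under siPcf11, where the 100 most read sites held 32.4% and 32.46%, against 26.91% and 27.04% in controls. When each library was thinned to 1800000 reads, 59148 and 58866 positions were seen under siPcf11 and 67779 and 69939 in controls. The part of this concentration in the results below was not tested. Positions are in mm9. Gene names, introns, UTRs, the level of Pcf11 itself and myoblast markers were not analysed here, because the gene tables at hand are of another build. Kept sites of a strand were instead joined over gaps of up to 5 kb into 16828 site groups, of which 7258 have 2 or more sites. One site group may cover part of a gene or more than a single gene.

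Levels of newly made RNA changed at 53.6% of the site groups, in both directions and often by a large factor. Summed over its sites, a site group was tested with edgeR's quasi-likelihood test, with Benjamini-Hochberg adjustment over all 11074 site groups that passed the count filter. At an adjusted p under 0.05, 3152 were higher under siPcf11 (28.5% of those tested) and 2788 lower (25.2%). Falls were the deeper changes. At least 4-fold higher were 231 and at least 4-fold lower 656, and at least 16-fold higher were 19 and at least 16-fold lower 72. The split depends on scaling. The trimmed mean of M values (TMM), used here, put the median log2 change at 0.04, and library totals put it at -0.28, a shift of 0.32 (log2). With library totals 1907 were higher and 3987 lower. More were lower than higher also without siPcf11 replicate 1 (2348 higher, 2407 lower), without siPcf11 replicate 2 (2418 and 2464) and with only these 4 libraries in the fit (2907 and 3036). Levels are relative to the reads of each library, so absolute amounts of RNA were not measured. In bulk RNA such as this, fewer cells carrying an RNA and less of that RNA per cell cannot be told apart.

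**Figure D1:**
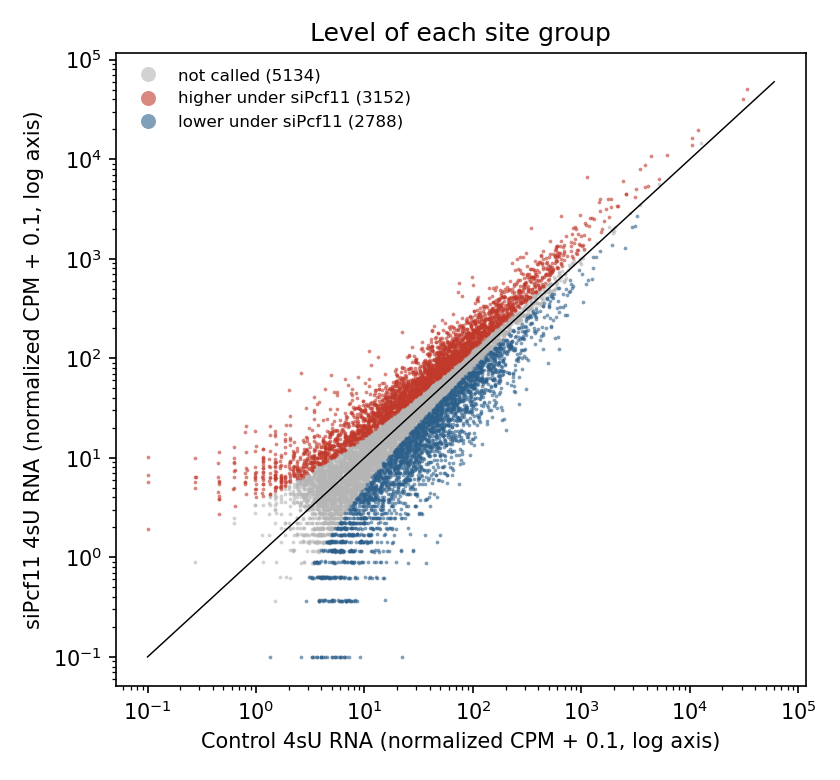
Mean level of each of the 11074 tested site groups in siPcf11 4sU RNA (vertical axis) and control 4sU RNA (horizontal axis), in TMM-normalized CPM plus 0.1 on log axes, mean of 2 libraries each. Red points are the 3152 called higher and blue points the 2788 called lower under siPcf11; the blue cloud reaches further from the diagonal line of equal level than the red one.

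The site group with the largest rise among those with reads in every library lies on chromosome 8, minus strand, at a single site, 73406788. Its level, in TMM-normalized CPM as for all levels below, was 69.4 and 73.2 under siPcf11, against 3.59 and 1.39 in controls (log2 fold change 4.82, SE 0.30, edgeR adjusted p = 6.14e-40). The log2 fold change was 5.63 without control replicate 1 and 4.28 without control replicate 2. Both siPcf11 libraries stood far above both controls. Total RNA showed a log2 change of 4.65 there. On chromosome 15, minus strand, 4 sites between 75705616 and 75711675 summed to 51.1 and 44.5 CPM under siPcf11, against 1.44 and 2.43 CPM in controls (log2 fold change 4.59, SE 0.35, edgeR adjusted p = 1.42e-29). The site at 75711675, the most 5′ of the 4, held 89.8% and 85.4% of those reads under siPcf11. The site at 106856597 on the minus strand of chromosome 4 had few reads in all. It stood at 11.0 and 11.9 CPM there and 0.359 and 0.347 CPM in control 4sU RNA, and in total RNA it had 0 and 0.888 CPM under siPcf11 and 0 in both controls. Its 43 siPcf11 4sU reads against 2 control reads give a ratio of 32.4 after scaling (counting interval 8.44 to 276), but its response was not called different from that in total RNA (difference 1.47, SE 4.37, edgeR adjusted p = 0.938). The 2 sites between 3232930 and 3237733 on chromosome 10, plus strand, summed to 20.9 and 20.6 CPM under siPcf11, against 0.718 and 0.693 CPM in controls (log2 fold change 4.77, SE 0.54, edgeR adjusted p = 1.26e-15).

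The deepest falls left newly made RNA with almost no reads. The site at 79720901 on the minus strand of chromosome 10 had 1.04 and 1.63 CPM under siPcf11, against 50.3 and 43.3 CPM in controls (log2 fold change -5.08, SE 0.40, edgeR adjusted p = 8.72e-28). Chromosome 3 has, on its minus strand at 96117432, another site of 1.56 and 1.63 CPM under siPcf11, against 57.5 and 42.6 CPM in controls (log2 fold change -4.92, SE 0.40, edgeR adjusted p = 9.41e-27). In total RNA this site was at 1.74 and 0 CPM under siPcf11 and at 12.9 and 8.61 CPM in controls. The site at 89506015 on the minus strand of chromosome 2 carried 1 siPcf11 read and 88 control reads, a ratio of 58.4 in favour of controls (counting interval 10.2 to 2332). The site at 5482836 on the minus strand of chromosome 19 had 3 siPcf11 and 208 control reads (a ratio of 46.0 in favour of controls, counting interval 15.5 to 225), and in total RNA 4.06 and 3.11 CPM under siPcf11 against 53.0 and 55.6 CPM in controls. On chromosome 19, minus strand, the sites at 53518501 and 53519581 had no read in either siPcf11 library and 126 in controls, so the sum was at least 27.9-fold lower, with 3 counts over the group as the floor. The remaining 5 of the 10 deepest falls had 2 to 4 siPcf11 reads and 84 to 159 control reads, with ratios of 26.0 to 31.6 in favour of controls and counting intervals that reach down to 7.48 and up to 239. With so few siPcf11 reads, the fitted size of such falls rests on single libraries: at 5482836 on chromosome 19 the log2 fold change was -4.56 without siPcf11 replicate 2, and without siPcf11 replicate 1 no siPcf11 read was left. Counting intervals and floors cover counting error only, since amplified reads are not independent molecules.

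The 5 most abundant site groups that rose at least 2-fold averaged 5979 to 10840 CPM under siPcf11. On chromosome 19, minus strand, 8 sites between 34308921 and 34316070 summed to 6476 and 6754 CPM under siPcf11, against 1196 and 1075 CPM in controls (log2 fold change 2.54, SE 0.11, edgeR adjusted p = 3.53e-66). The site at 34316012 held 92.1% and 92.8% of these reads under siPcf11 and 92.7% and 92.9% in controls, so the leading site kept its share of the sum. On chromosome 19, plus strand, the sites between 10058817 and 10061064 summed to 12039 and 9642 CPM under siPcf11, against 4597 and 4232 CPM in controls (log2 fold change 1.30, SE 0.10, edgeR adjusted p = 4.96e-28). The sites between 80641763 and 80645824 on chromosome 10, plus strand, summed to 7883 and 8234 CPM under siPcf11, against 3600 and 3406 CPM in controls, with 97.6% and 97.9% of siPcf11 reads and 96.0% and 96.6% of control reads at one site, 80645243. In each of the 5 most abundant site groups that rose at least 2-fold, both siPcf11 libraries lay above both controls, as the rule for naming them requires.

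The 5 most abundant site groups that fell at least 2-fold averaged 270 to 366 CPM under siPcf11, against 671 to 1025 CPM in controls. On chromosome 11, plus strand, the sites between 70471949 and 70476391 summed to 379 and 354 CPM under siPcf11, against 1007 and 1044 CPM in controls (log2 fold change -1.48, SE 0.12, edgeR adjusted p = 2.19e-28). On chromosome 1, minus strand, 13 sites between 180251239 and 180259658 summed to 283 and 258 CPM under siPcf11, against 780 and 693 CPM in controls (log2 fold change -1.44, SE 0.12, edgeR adjusted p = 4.45e-26). Within it, the share of the most read site, 180259167, was 40.9% and 39.8% under siPcf11, against 55.3% and 53.7% in controls, and the share of the most 3′ site, 180251239, was 25.0% and 23.4% under siPcf11, against 18.3% and 15.8% in controls. On chromosome 6, plus strand, 12 sites between 42308394 and 42312955 summed to 308 and 375 CPM under siPcf11, against 720 and 700 CPM in controls (log2 fold change -1.06, SE 0.12, edgeR adjusted p = 3.64e-16). There the most read site at 42308394 held 68.4% and 70.9% of reads under siPcf11, against 81.1% and 80.0% in controls, and the next site, 50 nt further, held 25.7% and 22.6% under siPcf11, against 12.8% and 14.1% in controls. In both of these site groups a lower sum thus went with a smaller share of the leading site in both siPcf11 libraries.

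The balance of rises and falls varied with the layout of the sites. Of the 4249 nuclear site groups with 1 site, 28.9% were higher and 20.8% lower, with a median log2 change of 0.13. Of the 2660 with 3 to 4 sites, 28.9% were higher and 28.6% lower. Of the 1316 with 5 to 9 sites, 28.3% were higher and 32.0% lower, and of the 115 with 10 or more, 27.0% and 39.1%. The share called lower thus went up with the number of sites while the share called higher hardly moved. By the distance between the outer sites, 24.1% were higher and 32.6% lower of the 665 that span over 5000 nt. By level in control total RNA, 19.5% were higher and 23.0% lower of the 3341 site groups over 5 and up to 20 CPM, 30.6% and 29.9% of the 4111 over 20 and up to 100 CPM, and 41.9% and 29.7% of the 1947 above 100 CPM. Shares are not given for site groups at up to 5 CPM, because whether these passed the count filter depends on their other libraries. The number of kept sites and the span also depend in part on the compared libraries, of which the controls held more reads and positions. These classes are thus not independent of the calls. The part of read depth in these shares was not tested.

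Site choice in newly made RNA moved toward the 3′ side. For each site group, the 2 most used sites over the 8 libraries made a pair, and distal use is the share of the pair's reads at the 3′ one. Over the 4693 pairs with at least 20 reads in each of the 4 libraries, mean distal use was 54.8% in both siPcf11 libraries, against 52.1% and 52.3% in controls, a difference of 2.61 percentage points. The groups did not overlap, and an exact two-sided permutation test of 2 against 2 libraries then gives 0.333, the smallest p it can. Most pairs moved little. The median change of a pair was 1.07 points, with quartiles at -1.54 and 6.15 points, and 63.3% of pairs had a change above 0. Distal use was higher in both siPcf11 libraries than in both controls in 1875 of the 4693 pairs, and lower in both in 898. These are not calls. With the 4 libraries in random order, a share of up to 0.333 of pairs would not overlap, split evenly over the 2 directions. The plus strand (2.63 points) and the minus strand (2.58 points) gave about the same difference.

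The change was small for sites under 500 nt apart and grew with distance beyond that. For pairs under 200 nt apart, mean distal use was 53.4% and 53.5% under siPcf11, against 52.1% and 52.3% in controls, a difference of 1.23 points (1167 pairs). Pairs 200 to under 500 nt apart differed by 1.09 points, those 500 to under 1000 nt apart by 1.75 points and those 1000 to under 2000 nt apart by 3.37 points. For the 1116 pairs at least 2000 nt apart, distal use was 54.0% in both siPcf11 libraries, against 48.8% and 49.0% in controls, a difference of 5.12 points, and 69.9% of these pairs had a change above 0. In every distance class both siPcf11 libraries lay above both controls. Sites were joined over gaps of up to 5 kb without gene names, so the 2 sites of a distant pair may belong to different genes. Over all pairs, gaps of up to 2 kb gave a difference of 1.76 points, beside 2.61 points with gaps of up to 5 kb.

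**Figure D2:**
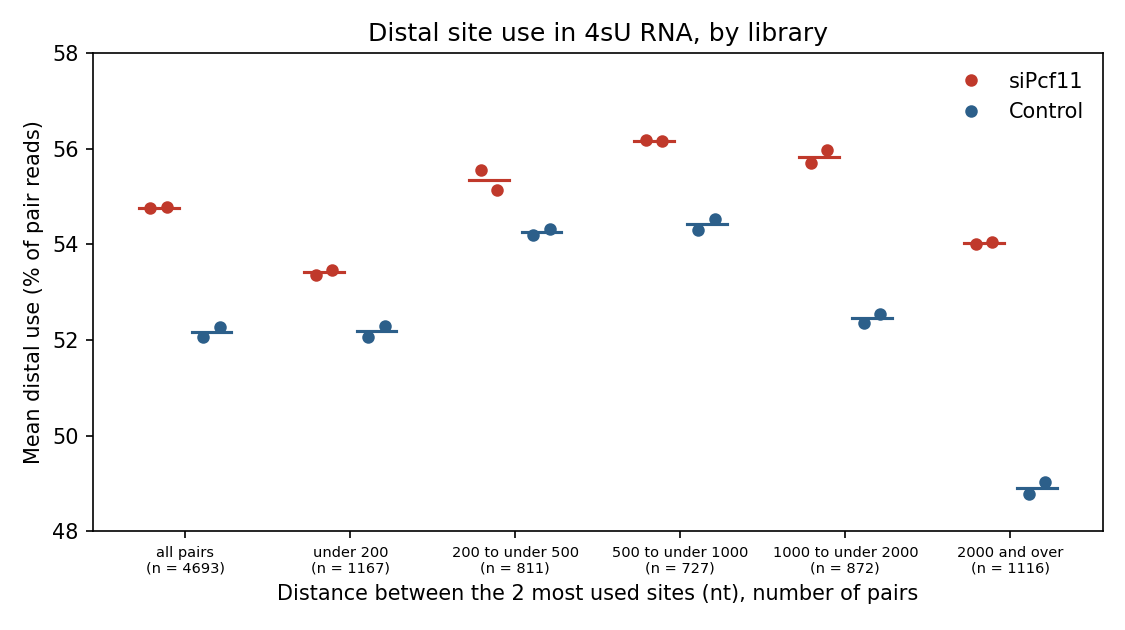
Mean distal use, in % of the pair's reads, for all pairs and by the distance between the 2 sites in nt; each point is one 4sU library, red siPcf11 left and blue control right, and the short line is the mean of 2. The axis does not start at 0. The siPcf11 points lie above the control points in every class, by 1.23 points under 200 nt and by 5.12 points at 2000 nt and over.

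The change also varied with the starting point of a pair. Pairs with at least 20 reads in each of the 8 libraries were sorted by their distal use in control total RNA. It comes from other libraries than those compared, but these may be of the same cultures. Distal use below 10% went with a difference of 2.60 points (1114 pairs), 10 to under 30% with 5.28 points (543 pairs), 30 to under 50% with 3.81 points (418 pairs), 50 to under 70% with 3.72 points (471 pairs), 70 to under 90% with 1.85 points (693 pairs) and 90% or more with 0.417 points (1143 pairs). The mean change was thus highest at 10 to under 30%, while the median change of a pair was 2.37 points there and highest, at 4.05 points, at 50 to under 70%. A pair near 0% or 100% has little room to move in one direction, so these differences in points are not differences in odds.

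Pair by pair, 1015 of 3599 pairs changed in use (edgeR's diffSpliceDGE, Benjamini-Hochberg adjusted p under 0.05, 28.2% of pairs tested). To the distal site moved 753 (20.9%), and to the proximal site 262 (7.28%). Sites must pass the count filter singly for a pair to be tested, which is why fewer pairs were tested than averaged. The count rests on a test of the pair as a whole. Where instead each of the 2 sites had to pass on its own, 116 pairs were called, 86 of them toward the distal site and 30 toward the proximal one. Of pairs under 200 nt apart, 8.87% went to the distal site and 2.39% to the proximal one, and of pairs at least 2000 nt apart 35.2% and 10.1%. Moves were large among the called pairs, which the test picks in part for size. The median size was 16.6 points in either direction, beside 6.48 points over all 3599 pairs tested. By at least 20 points moved 310 of the pairs called distal and 113 of those called proximal, beside 531 of all pairs tested. Of the 946 called pairs with at least 20 reads in each library, 151 had the proximal site as the more used one in controls and the distal site under siPcf11, and 64 the reverse.

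**Figure D3:**
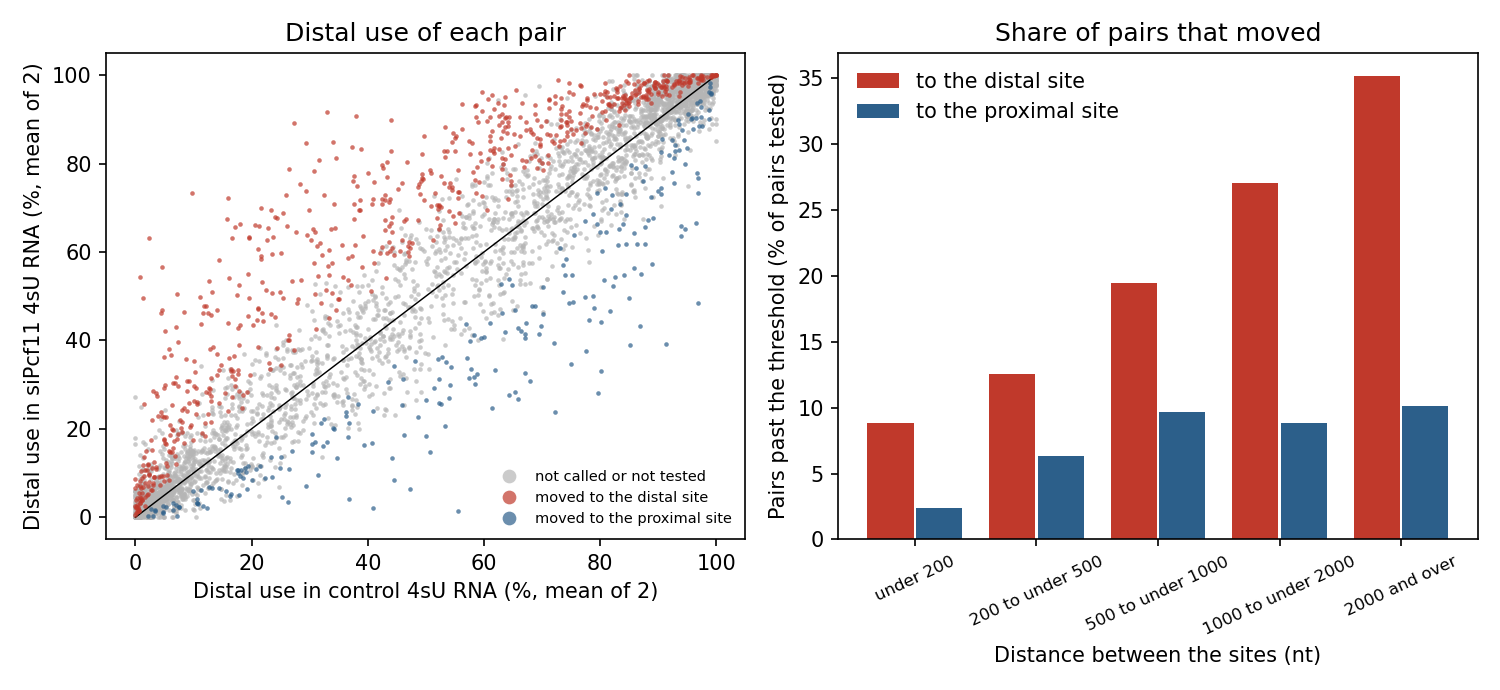
Left, distal use of each of the 4693 pairs in siPcf11 4sU RNA (vertical axis, %) and in control 4sU RNA (horizontal axis, %), mean of 2 libraries each; red pairs moved to the distal site, blue pairs to the proximal site and grey pairs were not called or not tested. Right, share of tested pairs called in each direction by distance between the sites; the distal share reaches 35.2% and the proximal share 10.1% at 2000 nt and over.

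By their medians, the 2 sites of a moving pair went in opposite directions in level. In the 753 pairs that moved distally, the proximal site had a median log2 change of -0.82 and the distal site one of 0.91, on the scale of log2(normalized CPM + 0.5). At least 2-fold lower were 325 of the proximal sites, and at least 2-fold higher 344 of the distal sites. In the 262 pairs that moved proximally, the medians were 0.73 at the proximal and -0.70 at the distal site. These medians follow in part from how the pairs were picked and are given as a description. The site groups of distally moving pairs were called higher in level in 287 cases (38.1%) and lower in 168 (22.3%), beside 32.0% and 29.1% of all tested pairs. Those of proximally moving pairs were called higher in 74 cases and lower in 75.

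The largest gains of distal use reversed the order of the sites. On chromosome 11, plus strand, the sites at 120582442 and 120585283 lie 2841 nt apart, and the distal one took 78.3% and 68.5% of reads under siPcf11, against 9.26% and 10.3% in controls. The distal over proximal ratio rose by 4.61 on the log2 scale (SE 0.47, edgeR adjusted p = 3.84e-15), while the level of the site group had a log2 change of -0.10 (adjusted p = 0.711). On chromosome 19, plus strand, the sites at 5455946 and 5458049 had distal use of 87.0% and 91.5% under siPcf11, against 27.8% and 26.9% in controls (log2 shift 4.46, SE 0.24, edgeR adjusted p = 1e-35). Its reads were many, with 642 and 628 at the distal site under siPcf11 and 173 and 175 in controls, and 96 and 58 at the proximal site under siPcf11 and 450 and 476 in controls. Both siPcf11 libraries showed the gain at the distal and the loss at the proximal site, and the level rose by 0.42 on the log2 scale (SE 0.12, edgeR adjusted p = 0.00138).

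Other gains came with a changed level. On chromosome 17, plus strand, the distal of the sites at 35667951 and 35671592 took 50.8% and 57.7% under siPcf11, against 0 and 1.67% in controls (edgeR adjusted p = 2.8e-18), in a site group whose level fell by 1.08 on the log2 scale. Reads of its proximal site were 30 and 22 under siPcf11 and 179 and 177 in controls, and those of its distal site 31 and 30 under siPcf11 and 0 and 3 in controls. On chromosome 15, plus strand, the distal of the sites at 78859866 and 78860934 took 83.3% and 100% under siPcf11, against 26.2% and 39.9% in controls (edgeR adjusted p = 2.59e-12), and the level fell by 1.89 on the log2 scale. The proximal site had 6 and 0 reads under siPcf11, against 175 and 149 in controls. On chromosome 11, minus strand, the distal of the sites at 102057061 and 102055732 took 59.0% and 67.4% under siPcf11, against 4.55% and 0 in controls (edgeR adjusted p = 1.66e-09), and the level rose by 2.41 on the log2 scale, with proximal reads of 32 and 29 under siPcf11 and 21 and 25 in controls.

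Losses of distal use reached a similar size. On chromosome 7, minus strand, the distal of the sites at 112894436 and 112891408 took 35.0% and 43.2% under siPcf11, against 91.7% and 90.8% in controls (log2 shift -4.03, SE 0.48, edgeR adjusted p = 6.42e-12). The distal reads were 14 and 16 under siPcf11 and 189 and 158 in controls, whereas the proximal reads were 26 and 21 under siPcf11 and 17 and 16 in controls. On chromosome 4, minus strand, the distal of the sites at 88556539 and 88555758 took 42.5% and 54.3% under siPcf11, against 96.7% and 97.0% in controls (log2 shift -4.98, SE 0.53, edgeR adjusted p = 2.65e-14), with a level change of 0.09 (adjusted p = 0.721). On chromosome 10, minus strand, the distal of the sites at 23506277 and 23504954 took 34.6% and 43.4% under siPcf11, against 82.6% and 87.8% in controls (log2 shift -3.17, SE 0.31, edgeR adjusted p = 4.42e-16). Reads were gained at the proximal site, with 178 and 162 reads under siPcf11 and 30 and 24 in controls, and the level rose by 1.32 on the log2 scale. On chromosome 19, minus strand, the distal of the sites at 5798394 and 5795690 took 24.2% and 23.5% under siPcf11, against 81.0% and 63.5% in controls. In total RNA it took 10.0% and 16% under siPcf11, against 25.0% and 33.3% in controls. Those shares rest on few distal reads, 1 and 4 under siPcf11 and 4 and 8 in controls. The change in total RNA was not called (log2 shift -1.32, edgeR adjusted p = 0.265).

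Most of the most read pairs used one site almost alone, so that a large change of the ratio was a small one in points. The 4 most read pairs that moved distally used their distal site for at least 99.6% of reads in every library and changed by 0.0866 to 0.179 points. The log2 shift was 2.63 for the sites at 76731735 and 76736744 on chromosome 15, plus strand, and 2.31 for those at 90406625 and 90409964 on chromosome 3, plus strand. Of the 4 most read that moved proximally, the sites at 90139321 and 90139887 on chromosome 11, plus strand, changed most in points, with distal use of 70.4% and 75.8% under siPcf11, against 83.6% and 85.4% in controls (log2 shift -0.99, SE 0.16, edgeR adjusted p = 2.42e-07). The sites at 48615620 and 48619590 on chromosome 11, plus strand, had distal use of 95.3% and 96.0% under siPcf11, against 99.3% and 99.0% in controls, which is the largest log2 shift of these 4 (-2.39, SE 0.22, edgeR adjusted p = 9.19e-18). The calls at 116372120 and 116372603 on chromosome 4, plus strand (1.69% and 2.10% under siPcf11, 2.79% and 2.74% in controls), and at 116828377 and 116826439 on chromosome 4, minus strand (98.7% and 97.8% under siPcf11, 99.0% and 98.8% in controls), did not stand with every library left out in turn. Without siPcf11 replicate 1 the first had an adjusted p of 0.183. The second was not called without siPcf11 replicate 2 (0.700), control replicate 1 (0.212) or control replicate 2 (0.0795), nor with no filter on low counts (0.0615) or a term for each library (0.0522). None of these 8 most read pairs kept its call where each of its sites had to pass singly, with an edgeR adjusted p of 0.817 for the pair at 90139321 and of 1.00 for the other 7.

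In site groups with more sites, reads left the 5′ end and gathered at the 3′ end. Sites holding at least 5% of a group's reads count as used. In the 861 site groups with 3 used sites, the first took on average 29.3% in both siPcf11 libraries, against 32.1% and 32.0% in controls, the middle 33.4% and 33.5%, against 34.4% and 34.5%, and the last 37.4% and 37.2%, against 33.5% in both. With 4 used sites (328 site groups), the first fell by 1.65 points and the last was 1.91 points higher, while the libraries of the 2 groups overlapped at both inner positions. With 3 used sites both siPcf11 libraries lay below both controls at the middle position as well, by 1.00 point on average.

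**Figure D4:**
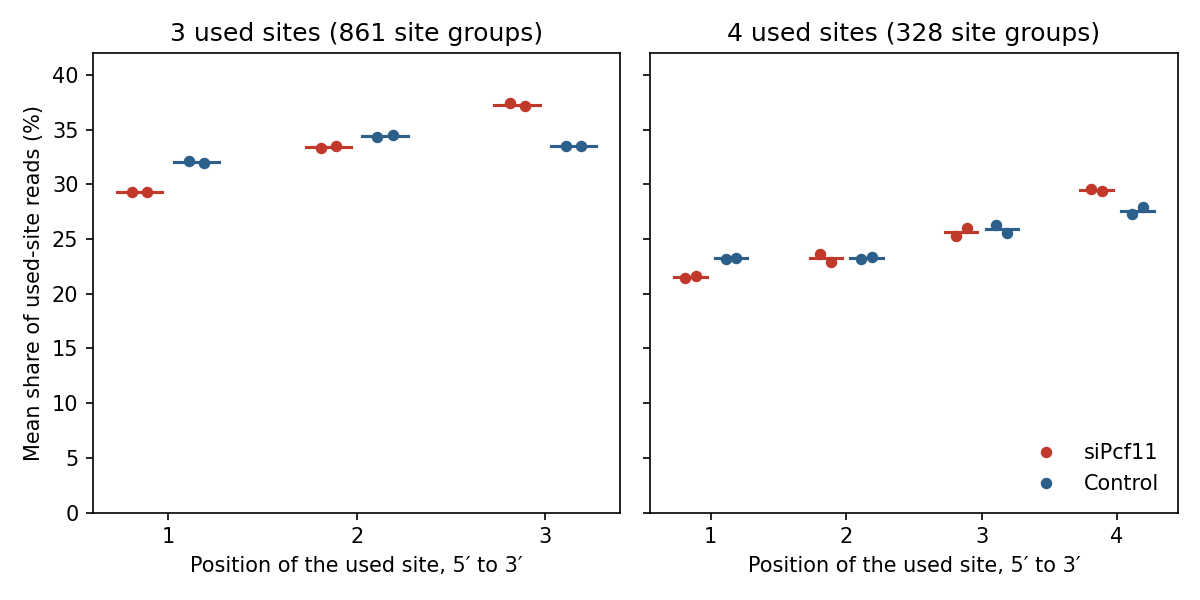
Mean share of used-site reads, in %, by the position of the site from 5′ to 3′, in site groups with 3 used sites (left, 861) and 4 used sites (right, 328); each point is one 4sU library, red siPcf11 left and blue control right, and the short line is the mean of 2. The first position is lower and the last higher under siPcf11 in both panels.

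Single sites showed the same order. Use relative to the rest of the site group changed at 1410 of 9951 sites (edgeR's diffSpliceDGE, adjusted p under 0.05, 14.2%), 668 higher (6.71%) and 742 lower (7.46%). Of the most 5′ sites, 3.15% were higher and 11.8% lower, of the most 3′ sites 10.8% and 2.99%, and of 2717 sites between them 165 were higher and 209 lower. Only 1369 of the 3617 site groups here had 3 or more tested sites. In the others, the most 5′ and most 3′ sites are the 2 parts of a single ratio, as in a pair. The count depends on each library and on the chaining: 779 were called without siPcf11 replicate 1, 855 without siPcf11 replicate 2, 874 without control replicate 1, and 844 without control replicate 2, or 857 where chaining stopped at 2 kb. Between 4 libraries and 3, the filter on low counts changes too.

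The most 5′ used site was also set against the sum of all other used sites. Whether such a site lies in an intron was not analysed, and 920 of the 3031 tested lay under 200 nt from the next used site. Use moved away from the most 5′ used site in 646 of 3031 site groups (21.3%) and toward it in 211 (6.96%), in all 28.3% (edgeR's diffSpliceDGE, adjusted p under 0.05). With exactly 2 used sites, in 1765 site groups, this takes the same reads as the pair. Among the 1266 with 3 or more used sites, 216 moved away and 87 toward. The largest move toward a first site was at 100957839 on chromosome 11, minus strand, where the sites downstream of it took 3.23% and 2.63% of reads under siPcf11, against 64.1% and 58.5% in controls. Where both single tests had to pass, 94 first sites were called, 74 away and 20 toward.

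Ends read too rarely to be kept as sites were more frequent just downstream of the site groups under siPcf11, and fewer upstream. Rare ends within 5 kb downstream of a nuclear site group's last site held 3533 and 3450 CPM under siPcf11, against 2981 and 3102 CPM in controls, here scaled to library totals, a ratio of 1.15. Rare ends within 5 kb upstream of its first site held 2971 and 3013 CPM under siPcf11, against 4312 and 4240 CPM in controls, a ratio of 0.70. In both cases the groups did not overlap, and the exact permutation p was 0.333, the smallest that 2 against 2 allows. Downstream, the ratio was 1.05 within 0.5 kb, 1.18 from 0.5 to 1 kb, 1.27 from 1 to 2 kb, 1.15 from 2 to 5 kb, 0.942 from 5 to 10 kb and 0.78 from 10 to 20 kb. Upstream it was 0.751 within 0.5 kb and 0.61 from 10 to 20 kb. Away from site groups these rare ends were fewer under siPcf11 as well, at 0.864% and 0.896% of reads against 1.14% and 1.23% in controls. Between the outer sites they held 0.304% in both siPcf11 libraries, against 0.360% and 0.365% in controls. On library totals, the excess within 5 kb downstream thus stood against a general drop. The size of that drop depends on the scaling. TMM put the ratios at 1.42 within 5 kb downstream and 0.865 within 5 kb upstream, and the other places are given on library totals only. The fall upstream was smallest within 0.5 kb and was not set apart from that drop. The greater share of reads at abundant sites under siPcf11 moves with this drop, and its part was not tested.

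**Figure D5:**
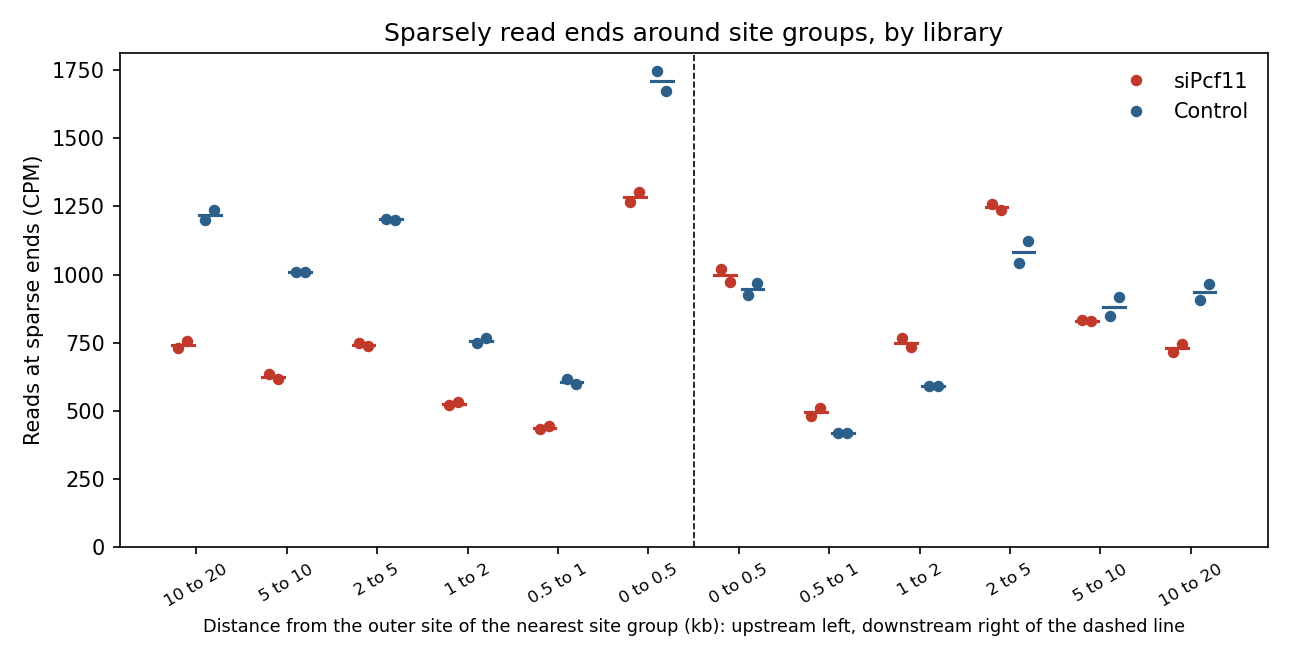
Reads at ends too rare to be kept, in CPM of library totals, by distance in kb upstream of the first site (left of the dashed line) or downstream of the last site (right) of the nearest site group; each point is one 4sU library, red siPcf11 left and blue control right, and the short line is the mean of 2. The siPcf11 points are lower at every upstream distance and higher from 0 to 5 kb downstream.

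Polyadenylated ends on the mitochondrial genome, which is transcribed by its own polymerase and processed apart from PCF11, were higher as well. The plus strand summed to 52004 and 49274 CPM under siPcf11, against 32696 and 34370 CPM in controls (log2 fold change 0.59, SE 0.10, edgeR adjusted p = 1.84e-08). The minus strand summed to 37506 and 43311 CPM under siPcf11, against 29156 and 33200 CPM in controls (log2 fold change 0.37, SE 0.10, edgeR adjusted p = 0.000515). As shares of all reads without TMM, the plus strand held 4.56% and 4.33% under siPcf11, against 3.55% and 3.735% in controls, but the minus strand overlapped, at 3.29% and 3.81% under siPcf11 and 3.16% and 3.61% in controls. The sites did not move alike. On the plus strand the end at 3845 had 11029 and 13066 CPM under siPcf11, against 4554 and 4483 CPM in controls, while the end at 4950 had 2228 and 1834 CPM under siPcf11, against 1851 and 1869 CPM in controls, where the groups overlapped.

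Set against total RNA, site choice moved in the same direction on average. Mean distal use of the same 4693 pairs differed by 3.38 points in total RNA, beside 2.61 points in newly made RNA, and for pairs at least 2000 nt apart by 7.18 beside 5.12 points. Of the 1015 pairs called in newly made RNA, 742 were called in total RNA too, which is 73.1% of that number and 63.6% of the 1167 called in total RNA. Of these, 579 moved distally in both, 161 proximally in both and 2 in opposite directions. Of all 3599 pairs tested, 1167 were called in total RNA. The 2 comparisons share no library, but they share a fit and its estimate of spread. The pairs were also picked over all 8 libraries, so the overlap is not independent agreement. Tested directly, the response differed in 5 of 3599 pairs (edgeR, adjusted p under 0.05, 0.139%). On simulated counts this test missed most 2-fold differences, so the low count does not show that the responses are alike. Without siPcf11 replicate 2 the test called 0, with 338 at an unadjusted p under 0.05, without control replicate 2 it called 1, and without either of the other two libraries 2.

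For levels, such a test called 93 of 11074 site groups (edgeR, adjusted p under 0.05, 0.84%), 76 with the higher change in newly made RNA and 17 with the lower. That split rests on the scaling, as library totals gave 33 and 38, and on single libraries, as 8 and 17 were called without siPcf11 replicate 1, 17 and 23 without siPcf11 replicate 2 and 19 and 7 without control replicate 2. Of those named by the smallest p, the most abundant spans 143664796 to 143667028 on the minus strand of chromosome 5. In newly made RNA it had 8760 and 8585 CPM under siPcf11, against 4202 and 3487 CPM in controls (log2 fold change 1.17, SE 0.10, edgeR adjusted p = 6.26e-24). In total RNA it had 9812 and 9888 CPM under siPcf11, against 8640 and 8330 CPM in controls, so that newly made RNA alone passed the test. The sites at 67421701 to 67421783 on chromosome 14, minus strand, had 227 and 197 CPM under siPcf11, against 90.2 and 101 CPM in controls, while total RNA had 105 and 94.5 CPM under siPcf11 and 111 and 99.1 CPM in controls, with overlap.

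In the 3 site groups named for a lower change in newly made RNA, the means of total RNA were higher under siPcf11 and those of newly made RNA much less so or lower. The site at 98730119 on chromosome 10, plus strand, had 120 and 108 CPM in newly made RNA under siPcf11, against 85.1 and 98.8 CPM in controls (log2 fold change 0.31, SE 0.15, edgeR adjusted p = 0.0658), a change of -0.00 with library totals. In total RNA it had 156 and 152 CPM under siPcf11, against 56.0 and 60.7 CPM in controls. The site at 178769211 on chromosome 1, plus strand, had 275 and 268 CPM in newly made RNA under siPcf11, against 298 and 285 CPM in controls, and in total RNA 348 and 324 CPM under siPcf11, against 211 and 206 CPM in controls. The sites at 86396943 to 86398195 on chromosome 11, minus strand, had 128 and 154 CPM in newly made RNA under siPcf11, against 229 and 222 CPM in controls (log2 fold change -0.68, SE 0.13, edgeR adjusted p = 3.8e-06), and in total RNA 155 and 135 CPM under siPcf11, against 121 and 126 CPM in controls (log2 change 0.22, edgeR adjusted p = 0.174).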

How the data were processed

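Per the file headers and the labels, the deposited 3′READS files give each poly(A) site's chromosome, strand, position and read count, whole numbers that the authors left unnormalized. The submitters' processing notes name Cutadapt, Bowtie2, STAR and mm9, without roles or versions; how ends were merged into sites is not given in the sources used here. Groups came from the sample titles, with 2 libraries each. The libraries compared, and the sites, pairs and settings described, were chosen with earlier results of these data known.

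No mm9 annotation was at hand, so genes and gene lists planned for the tests were replaced by site groups: sites with at least 1 CPM in at least 2 of 8 libraries, chained on a strand over gaps of up to 5 kb. All 8 siPcf11 and control C2C12 libraries, 4sU and total RNA, were fitted by group with edgeR 4.0.16 under R 4.3.3 (glmQLFit, TMM, filterByExpr at a minimum count of 10; limma 3.58.1), and site use with diffSpliceDGE. A shift is the log2 change of the distal minus that of the proximal count, and a standard error is the effect divided by the square root of F. The threshold was a Benjamini-Hochberg adjusted p of 0.05 over all features tested.

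Named site groups were those past the threshold, outside the mitochondrial genome, with no overlap between groups and at least 10 CPM in the higher group: the 10 largest rises and falls and the 5 most abundant changed at least 2-fold each way. Named pairs had at least 20 reads per library: the 8 largest gains and losses and the 4 most read each way, with the 4 largest changes of first sites each way. For the difference from total RNA, the 3 lowest p each way were named. The text gives part of these.

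Replicates differed by more than counting noise (chi-square per degree of freedom 2.4 for siPcf11 and 2.79 for control 4sU). Replicate numbers were not treated as pairs in the main fits. Deviations of equal number correlated by 0.0796 between siPcf11 and control 4sU RNA over 11074 site groups. This low value cannot exclude a pairing, since noise in the counts also lowers it. The tests were checked on simulated counts before use; false calls among the pairs and first sites exceeded the share that the threshold allows. Alternatives were DESeq2 1.42.0, other scalings, no count filter, a replicate block, gaps of 2 kb, the 4 libraries alone and each library left out. Tables and plots used Python 3.11.15, pandas 2.3.3, numpy 2.4.6, scipy 1.17.1 and matplotlib 3.10.9.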

Additional observations from a re-analysis of the deposited data

Results flagged for a closer look

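The test of the difference between the siPcf11 response in newly made RNA and that in total RNA (edgeR, Benjamini-Hochberg adjusted p under 0.05) picked out 93 site groups for their level and 5 pairs for their site use. The values below are the log2 change in newly made RNA minus the log2 change in total RNA.

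For levels, the difference was 0.96 (SE 0.14, edgeR adjusted p = 8.9e-07) for the site group from 143664796 on chromosome 5, minus strand. It was 0.70 (SE 0.15, edgeR adjusted p = 0.00299) for that from 34308921 on chromosome 19, minus strand, with an adjusted p of 0.0763 without siPcf11 4sU replicate 1 and 0.106 without replicate 2. The site group from 67421701 on chromosome 14, minus strand, differed by 1.23 (SE 0.20, edgeR adjusted p = 2.52e-05). That from 20813275 on chromosome 9, plus strand, differed by 1.35, with 115 and 101 CPM in newly made RNA under siPcf11 against 63.6 and 60.6 CPM in controls, and with 59.1 and 76.3 CPM in total RNA under siPcf11 against 100 and 99.8 CPM in controls. Lower in newly made RNA were the responses at 98730119 on chromosome 10, plus strand (-1.08, edgeR adjusted p = 0.00118), from 86396943 on chromosome 11, minus strand (-0.90, edgeR adjusted p = 0.00332), and at 178769211 on chromosome 1, plus strand (-0.79, edgeR adjusted p = 0.00404). Except for the site group on chromosome 19, these held with each 4sU library left out in turn.

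For pairs, the response at 32456088 and 32460117 on chromosome 5, plus strand, differed by -2.28 (edgeR adjusted p = 0.00486). Distal use there was 55.2% and 48.8% in newly made RNA under siPcf11 against 67.2% and 73.1% in controls, but 57.3% and 68.8% in total RNA under siPcf11 against 39.3% and 48.4% in controls. The pair at 131911838 and 131908236 on chromosome 4, minus strand, differed by 2.17, with 87.1% and 83.0% in newly made RNA under siPcf11 against 72.3% and 73.9% in controls, and 72.6% and 56.4% in total RNA under siPcf11 against 79.6% and 78.5% in controls. The pair at 134882797 and 134879713 on chromosome 1, minus strand, differed by -1.83, with 49.2% and 50.0% in newly made RNA under siPcf11 against 19.7% and 31.1% in controls, and 47.2% and 48.8% in total RNA under siPcf11 against 7.11% and 8.52% in controls. The pair at 73587656 and 73589960 on chromosome 15, plus strand, differed by -6.28, a fitted value that depends on the prior count, as control total RNA had no distal read. Distal use there was 4.07% and 3.43% in newly made RNA under siPcf11 against 2.44% and 1.95% in controls. The pair at 138659702 and 138657729 on chromosome 4, minus strand, differed by -2.19, with 1.75% and 0.973% in newly made RNA under siPcf11 against 0.681% and 0.398% in controls, and 3.06% and 3.85% in total RNA under siPcf11 against 0.129% and 0.477% in controls. The last 4 of these had an adjusted p of 0.0393, and each of the 5 lost its call in this test when at least 1 of the 4 4sU libraries was left out, keeping its direction.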

How the results depend on the processing

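Whether the replicate number pairs these samples is not known. With it as a block, 6076 site groups, 1034 pairs, 878 first sites and 1460 single sites were called, and the level response differed in 229 site groups. A block that ties each 4sU library to the total RNA library of its treatment and number, chosen after the data were seen, gave 145. DESeq2 called 32 level differences and 4466 levels. Leaving out a 4sU library gave 4755 to 5003 levels, 25 to 93 level differences, 731 to 758 pairs, 603 to 656 first sites, 779 to 874 single sites, 0 to 2 pair differences, and a mean distal use 2.50 to 2.71 points higher under siPcf11. With gaps of up to 2 kb, 857 single sites and 1 pair difference were called and the mean difference was 1.76 points. It was 2.26 points with at least 50 reads per pair, 3.83 points between the outermost used sites and 3.11 points for summed reads. Requiring each site to pass singly, also chosen later, left 116 pairs and 94 first sites. TMM scaling put the ratios of rare ends at 1.42 downstream and 0.865 upstream, and leaving out a library put them at 1.13 to 1.17 and 0.694 to 0.706. Of the named levels, 1 turned, at 98730119 on chromosome 10, to -0.0035 with library totals, against 0.31. No other named level, pair or first site changed direction in the settings where it was followed. Named items were not followed with gaps of up to 2 kb, nor named pairs between the outermost used sites. Of 290 values of named pairs, 24 lost their call. The causes were not tested. Depth limits the calls, since 3599 of 7258 site groups with 2 or more sites had enough reads for a pair to be tested.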
